A study of Mus musculus with 8 samples.

Results

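Tcf7l2, Bhlhe40, Pou2f2, Hes1, Ikzf1, Ikzf2 and Ikzf3 are 7 transcription factor genes whose transcripts were followed in Ly6Chi and Ly6Clo mouse monocytes. They are 7 of the 18193 genes that the array names by a single symbol, found by exact symbol, and have 17 probe sets (sets of short oligonucleotides that report 1 transcript) among the 45037 that are not controls. The selection does not name which members were picked for their pattern. Tcf7l2, Bhlhe40, Pou2f2, Hes1 and Ikzf3 are treated here as picked by their higher signal in these Ly6Clo arrays. Their difference between the subsets is therefore given as a description without a test. Ikzf1 and Ikzf2 stand beside them as relatives of Ikzf3. The difference of Ikzf1 was tested, and Ikzf2 was too dim to enter the test.

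Both subsets came from C57Bl/6 mice of 12 weeks, and the labels name no treatment and no genetic change. Ly6Chi monocytes carry the Gr1 (Ly-6C) epitope at a high level and are known to enter inflamed tissue, whereas Ly6Clo monocytes carry little of it and are known to patrol vessel walls. Leukocytes of 5 mice were combined before every sort, so a sample is a pool and not an animal, and the sorting was done on 4 occasions. Each subset has 4 samples, each on 1 Affymetrix mouse array. Values are log2 intensity, and differences are Ly6Clo minus Ly6Chi. Levels of different probe sets are not comparable, because each has its own affinity. In RNA of sorted bulk cells, fewer cells with a transcript and less transcript per cell cannot be told apart.

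These factors belong to separate families. Tcf7l2 is an HMG-box factor of the TCF/LEF family that activates genes together with beta-catenin when Wnt signalling is on and recruits Groucho/TLE corepressors when it is off. Hes1 and Bhlhe40 are basic helix-loop-helix repressors, the former a classical target of Notch signalling and the latter a modulator of the circadian clock and of cytokine genes. Pou2f2 encodes Oct-2, an octamer-binding POU factor best known from B cells. Ikzf1 (Ikaros), Ikzf2 (Helios) and Ikzf3 (Aiolos) are zinc finger proteins known for their part in lymphocyte development. They bind DNA through fingers near the N-terminus, form dimers through fingers near the C-terminus and recruit the NuRD chromatin remodelling complex.

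RefSeq start sites were on hand for 3 of the 7 members, Tcf7l2, Pou2f2 and Ikzf1 (mouse build GRCm38.p6), and the 250 bases before 1 start site of each are shown so that factors that differ together can be read side by side. Capitals mark a motif match. The Tcf7l2 window is chr19:55741560-55741809 on the plus strand, the Pou2f2 window is chr7:25132461-25132710 on the minus strand and the Ikzf1 window is chr11:11685675-11685924 on the plus strand.
Tcf7l2: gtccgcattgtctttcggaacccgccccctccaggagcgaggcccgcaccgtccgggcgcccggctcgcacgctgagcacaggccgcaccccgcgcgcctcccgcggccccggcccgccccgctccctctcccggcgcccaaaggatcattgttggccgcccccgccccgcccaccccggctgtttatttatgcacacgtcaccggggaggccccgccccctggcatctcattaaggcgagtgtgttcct
Pou2f2: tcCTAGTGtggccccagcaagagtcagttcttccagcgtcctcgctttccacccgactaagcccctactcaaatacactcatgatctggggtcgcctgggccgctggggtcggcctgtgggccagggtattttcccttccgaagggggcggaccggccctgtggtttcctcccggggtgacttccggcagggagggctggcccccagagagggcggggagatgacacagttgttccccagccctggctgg
Ikzf1: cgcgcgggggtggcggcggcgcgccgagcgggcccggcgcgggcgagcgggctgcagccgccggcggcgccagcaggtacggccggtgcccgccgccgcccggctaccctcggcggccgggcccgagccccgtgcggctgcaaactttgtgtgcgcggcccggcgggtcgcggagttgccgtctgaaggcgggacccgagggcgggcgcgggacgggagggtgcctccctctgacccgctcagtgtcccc

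The windows are rich in G and C, at 72.8% for Tcf7l2, 64.8% for Pou2f2 and 82% for Ikzf1. They were searched on both strands for CACGTG (the E-box, bound by clock and Bhlhe factors), CACNAG (the N-box, bound by Hes factors), CTTTGA (the TCF core), TGGGAA (a core shared by RBPJ and Ikaros sites) and ATTTGCAT (the octamer). The single match was an N-box on the opposite strand of the Pou2f2 window, starting 248 bases before the start site. It overlapped no other motif, and an N-box occurred in 36.7% of 32851 RefSeq windows of the same length. The other motifs occurred in 6.02% (E-box), 13.8% (TCF core), 21.6% (TGGGAA) and 1.6% (octamer) of those windows. Tcf7l2 and Ikzf1 each have another listed start site, at which none of these letters were found in the window, at a G and C content of 40.8% and 47.6%.

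The sorted cells carried the signals of their labels. Ly6Chi was called higher for each of the 6 measured classical markers and Ly6Clo for each of the 9 nonclassical markers. The lists were chosen with earlier results of these data known, so these counts are no independent check of the sort. Of 8 markers shared by monocytes, 4 were called toward Ly6Clo and 2 toward Ly6Chi, and their mean ran from 12.00 to 12.06 in Ly6Chi and from 12.18 to 12.30 in Ly6Clo. Genes of the sorted epitope itself, Ly6c1 and Ly6c2, had no probe set with a single symbol. The 8 arrays had median intensities from 80.5 to 83, and 22831 probe sets passed a filter that asked for a value over the median of all values (the table median, log2 6.36) in at least 4 arrays. That median serves below as a stand-in for background. The 2 samples numbered 1 had the highest mean signal in their subset for 7 of 8 marker lists of other blood cells, so member values are also given without them. The comparison used limma, with p-values adjusted by Benjamini-Hochberg over everything tested.

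Of the 17 member probe sets, 13 passed the filter and 4 did not, namely all 3 of Ikzf2 and 1 of the 3 of Ikzf3. Of the genes not treated as picked, Ikzf1 had both of its probe sets called higher in Ly6Clo. All members were chosen with earlier results of these data known, so the Ikzf1 calls are no independent check. Over the whole array 15.2% of tested probe sets were called higher in Ly6Clo (31.1% in either direction), and 15.4% were higher there without overlap. For the picked genes the values below describe the choice and carry no call.

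**Figure D1:**
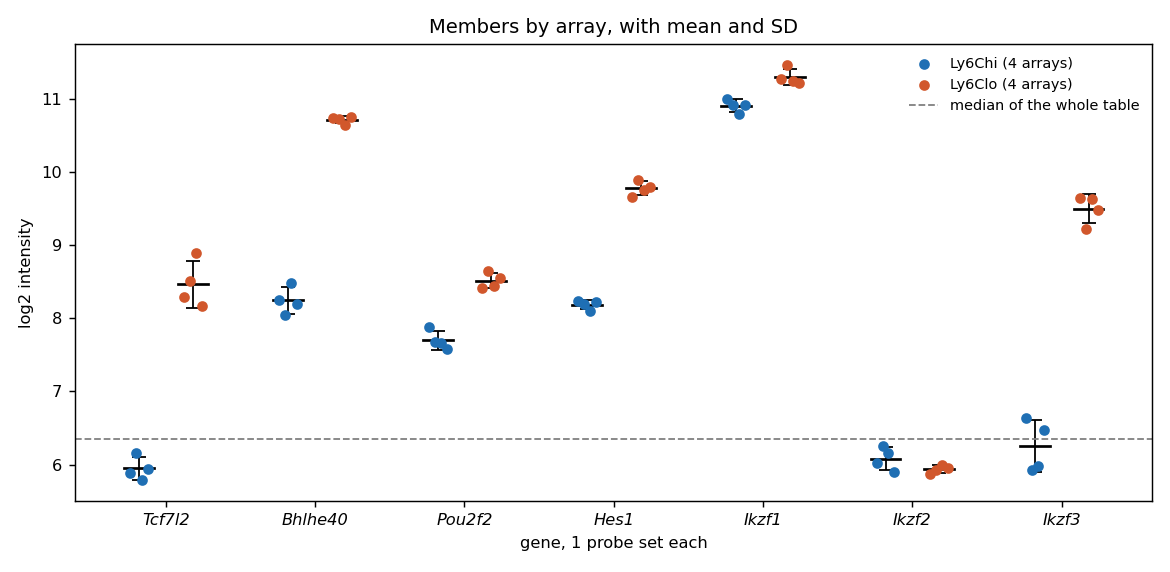
Log2 intensity of 1 probe set for each of the 7 genes in 4 Ly6Chi (blue) and 4 Ly6Clo (orange) arrays; points are arrays, bars are the mean and SD, and the dashed line is the table median at 6.36. The subsets stand apart for every gene but Ikzf2, whose 8 values all lie below the dashed line. Tcf7l2, Bhlhe40, Pou2f2, Hes1 and Ikzf3 are treated as picked for this difference, so their separation was set by the choice. Of all tested probe sets, 31.8% had no overlap between the subsets in either direction and 15.4% had none with Ly6Clo higher. Heights of different genes are not comparable.

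Tcf7l2, the TCF/LEF member, was close to background in Ly6Chi cells and clearly above it in Ly6Clo cells. Its brightest probe set, 1429428_at, read 5.89, 6.16, 5.79 and 5.94 in the Ly6Chi arrays and 8.30, 8.50, 8.89 and 8.16 in the Ly6Clo arrays. No Ly6Chi array passed the table median, all 4 Ly6Clo arrays did, and Ly6Clo replicate 3 was the highest. The means were 5.95 ± 0.16 and 8.46 ± 0.32 (SD, n = 4 each), a difference of 2.52 (SE 0.14), which against background is at least 4.31-fold.

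The other 3 Tcf7l2 probe sets were also higher in every Ly6Clo array than in any Ly6Chi array, and in each the Ly6Chi mean lay below the table median, so only bounds can be given. Probe set 1429427_s_at averaged 4.70 ± 0.22 and 7.40 ± 0.22, at least 2.06-fold. Probe set 1425229_a_at averaged 5.42 ± 0.25 and 6.54 ± 0.17, at least 1.14-fold, and 1426639_a_at averaged 6.28 ± 0.17 and 6.64 ± 0.09, at least 1.22-fold. The last pair stayed near background in Ly6Clo as well, so these bounds do not order the probe sets by the size of their difference. The average of the 4 differed by 1.67 in measured signal. Tcf7l2 is known to be spliced into many forms with different 3' ends, and the files do not say which form each probe set reads.

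Bhlhe40, the helix-loop-helix repressor also called Dec1, was expressed in both subsets and far more in Ly6Clo. Its single probe set read 8.24, 8.05, 8.48 and 8.20 in the Ly6Chi arrays and 10.75, 10.72, 10.64 and 10.76 in the Ly6Clo arrays. The Ly6Clo values were tight, with an SD of 0.05 against 0.18 in Ly6Chi, and the groups lay far apart. The difference of 2.47 (SE 0.09) is 5.55-fold.

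Hes1, the Notch-induced repressor, was likewise present in both subsets. Its single probe set read 8.23, 8.19, 8.10 and 8.22 in Ly6Chi and 9.66, 9.90, 9.76 and 9.79 in Ly6Clo. Spread within a subset was small (SD 0.06 and 0.10), and the gap between the highest Ly6Chi and the lowest Ly6Clo array was many times larger. The difference of 1.59 (SE 0.07) is 3.01-fold.

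Pou2f2 (Oct-2) showed a smaller difference, in the same direction in all 3 of its probe sets. The representative, 1427725_a_at, read 7.89, 7.67, 7.67 and 7.58 in Ly6Chi and 8.42, 8.65, 8.44 and 8.55 in Ly6Clo. Ly6Chi replicate 1 was the highest of its subset in all 3 probe sets, and Ly6Clo replicate 2 the highest of its own. The difference was 0.81 (SE 0.08), or 1.76-fold, in 1427725_a_at and 0.81 (SE 0.11), or 1.75-fold, in 1443885_at. It was 1.22 (SE 0.11), or 2.32-fold, in 1427713_x_at, whose suffix marks possible matches to other transcripts.

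**Figure D2:**
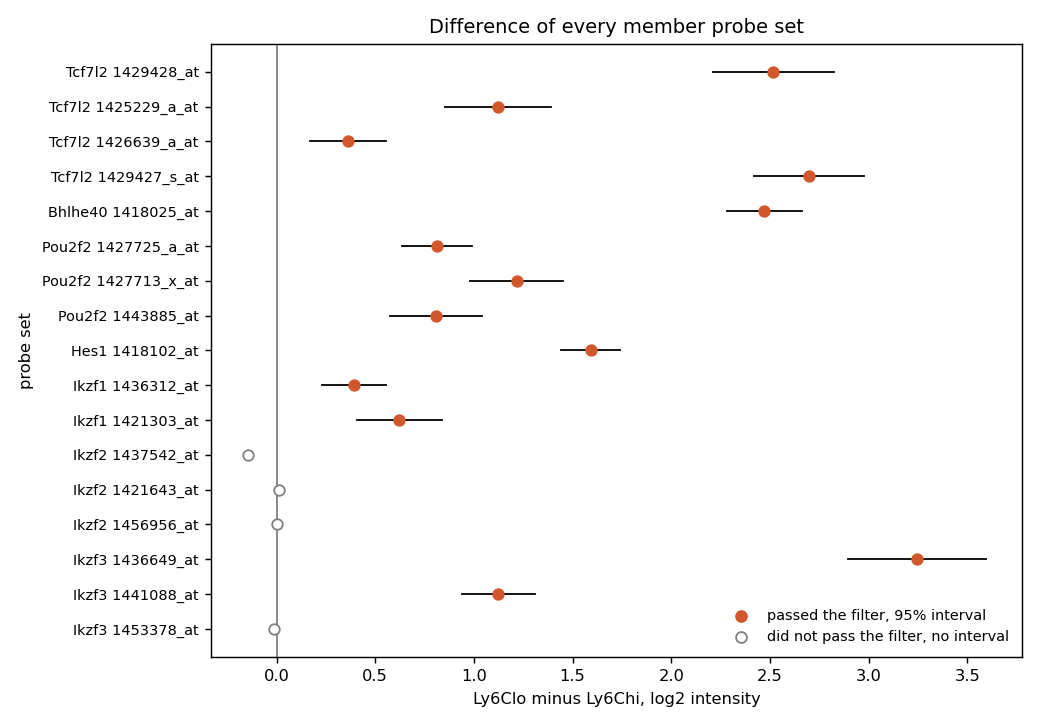
Difference between the subsets (Ly6Clo minus Ly6Chi, log2 intensity) for each of the 17 member probe sets; filled points passed the filter and carry a 95% interval, open points did not pass it. Tcf7l2, Bhlhe40, Pou2f2, Hes1 and Ikzf3 are treated as picked for this difference, so their intervals describe precision only and are not a test. Tcf7l2 probe sets 1429428_at, 1429427_s_at and 1425229_a_at passed the filter through Ly6Clo arrays alone. Filled points run from 0.36 for a Tcf7l2 probe set to 3.24 for an Ikzf3 probe set, and the 4 open points lie between -0.14 and 0.01; for Tcf7l2 and the highest Ikzf3 point the Ly6Chi mean lay below the table median, so their size is not exact.

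Of the Ikaros family, Ikzf3 (Aiolos), known for the maturation of B cells, was close to background in Ly6Chi and far above it in Ly6Clo. Its representative, 1436649_at, read 6.64, 5.92, 5.98 and 6.47 in Ly6Chi and 9.65, 9.22, 9.64 and 9.48 in Ly6Clo. Only Ly6Chi replicates 1 and 4 passed the table median in that subset, while every Ly6Clo array lay far above it. The means were 6.25 ± 0.36 and 9.50 ± 0.20 (SD, n = 4 each), a difference of 3.24 (SE 0.16) and at least 8.83-fold.

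The other 2 Ikzf3 probe sets gave less. Probe set 1441088_at rose above background in both subsets, at 6.79 ± 0.11 and 7.92 ± 0.15, and differed by 1.12 (SE 0.08), or 2.18-fold. Probe set 1453378_at lay below the table median in all 8 arrays, at 4.97 ± 0.08 and 4.96 ± 0.08. The average of the 2 that passed the filter differed by 2.18.

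Ikzf1 (Ikaros), which is expressed from blood stem cells onward in most white cells, was called higher in Ly6Clo by a modest step. Its representative, 1436312_at, read 11.00, 10.92, 10.80 and 10.91 in Ly6Chi and 11.27, 11.47, 11.25 and 11.22 in Ly6Clo, with no overlap. The difference of 0.39 (SE 0.07, limma adjusted p = 0.00163) is 1.31-fold. The other probe set, 1421303_at, agreed in direction at 0.62 (SE 0.10, limma adjusted p = 0.000481), or 1.54-fold.

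Ikzf2 (Helios), best known from regulatory T cells, was not above background. Its 3 probe sets lay below the table median in all 8 arrays, between 4.36 and 6.25, and none entered the test. The brightest averaged 6.08 ± 0.15 in Ly6Chi and 5.94 ± 0.05 in Ly6Clo, and the subsets overlapped. These values bound the signal and do not show that the transcript is absent.

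Without the 2 samples numbered 1, the representative differences were 2.56 for Tcf7l2, 2.46 for Bhlhe40, 0.91 for Pou2f2, 1.64 for Hes1, 0.43 for Ikzf1 and 3.32 for Ikzf3, all within 0.1 of the values above. For Ikzf1 the limma adjusted p was then 0.00538.

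The following paragraphs give the partners and pathway genes of each family, by the count called among those tested. Over all 11546 tested genes 32.5% were called, 14.1% with more signal in Ly6Clo and 18.5% with more in Ly6Chi. The median difference was -0.01.

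Of 20 tested genes of the Ikaros family and its chromatin partners, 4 were called toward Ly6Clo, 1 toward Ly6Chi and 15 not at all (25%, median difference 0.03). Rbbp7, a histone-binding NuRD subunit, had the largest difference at 0.94 (SE 0.08, limma adjusted p = 4.5e-06), or 1.92-fold. Chd3, a NuRD remodelling ATPase, was 1.48-fold higher in Ly6Clo (limma adjusted p = 9.04e-05). The others were Ikzf1 and Mta2, the latter at a difference of 0.20 (limma adjusted p = 0.0427). The deacetylase Hdac2 was 1.23-fold higher in Ly6Chi (limma adjusted p = 0.00865). This call was lost without the 2 samples numbered 1 (limma adjusted p = 0.0585). With all 8 arrays the other tested Hdac2 probe set differed by -0.39 (limma adjusted p = 0.0107). Of the remaining family members, Ikzf5 differed by 0.11 (limma adjusted p = 0.172) and Ikzf4 lay below the table median in all 8 arrays.

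Of 28 tested genes of the TCF/LEF family and the canonical Wnt pathway, 8 were called toward Ly6Clo and 2 toward Ly6Chi (35.7%, median difference 0.05). The Wnt receptor Fzd7 led at 7.24 ± 0.24 in Ly6Chi and 8.72 ± 0.16 in Ly6Clo, or 2.78-fold (limma adjusted p = 2.31e-06), although its other tested probe set differed by only 0.28. Ccnd1 (cyclin D1), a known Wnt target with other inputs as well, was 2.09-fold higher in Ly6Clo (limma adjusted p = 1.6e-05), in the same direction in all 3 of its tested probe sets. The Groucho corepressors went apart, with Tle1 1.44-fold higher in Ly6Clo (limma adjusted p = 0.00178) and Tle3 1.54-fold higher in Ly6Chi (limma adjusted p = 0.000296). Ctnnbip1, which blocks beta-catenin from binding TCF factors, was 1.19-fold higher in Ly6Chi (limma adjusted p = 0.0115). This call was lost without the 2 samples numbered 1 (limma adjusted p = 0.0603). With all 8 arrays the other tested Ctnnbip1 probe set differed by -0.33 (limma adjusted p = 0.00389).

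Chosen after their values were seen, beta-catenin itself (Ctnnb1) differed by -0.05 (limma adjusted p = 0.556) and Axin2, a common readout of Wnt signalling, by -0.06 (limma adjusted p = 0.687). Of the relatives of Tcf7l2, Lef1 at a difference of 0.11 (limma adjusted p = 0.326) and Tcf7l1 at 0.01 (limma adjusted p = 0.954) were not called either. Lef1 averaged 6.33 in Ly6Chi and 6.44 in Ly6Clo, close to the table median, so its lack of a call says little. Tcf7 had no probe set with a single symbol.

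The Notch list had 5 of 32 tested genes called toward Ly6Clo and 4 toward Ly6Chi (28.1%, median difference -0.04). Nrarp, a Notch target that feeds back on the pathway, read 7.84 ± 0.17 in Ly6Chi and 9.48 ± 0.22 in Ly6Clo, or 3.12-fold (limma adjusted p = 8.12e-07). Its other probe set differed by 2.81 in the same direction. The glycosyltransferases Lfng and Pofut1, which modify Notch receptors, were 1.37-fold (limma adjusted p = 0.000275) and 1.29-fold (limma adjusted p = 0.0024) higher in Ly6Clo. The other 2 tested Pofut1 probe sets differed by 0.09 and 0.20 and were not called (limma adjusted p = 0.332 and 0.245).

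In the opposite direction, the receptor Notch1 fell from 8.50 ± 0.10 in Ly6Chi to 7.21 ± 0.13 in Ly6Clo, or 2.45-fold (limma adjusted p = 3.56e-07). Its other probe set differed by -0.53. The gamma-secretase subunits Psen2 and Aph1b were 1.41-fold (limma adjusted p = 0.00326) and 1.36-fold (limma adjusted p = 0.000279) higher in Ly6Chi, with a difference near 0 in the other Psen2 probe set. Chosen after their values were seen, Notch2, known to matter for Ly6Clo monocytes, differed by 0.12 (limma adjusted p = 0.27) and the nuclear partner Rbpj by -0.17 (limma adjusted p = 0.0887). Among other Hes and Hey genes, Hes5, Hes6, Hes7 and Hey1 were tested and not called, with differences from -0.11 to 0.11. Hes2, Hes3, Hey2 and Heyl did not pass the filter. Without Ly6Clo replicate 2 the count higher in Ly6Chi was 7 in place of 4.

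**Figure D3:**
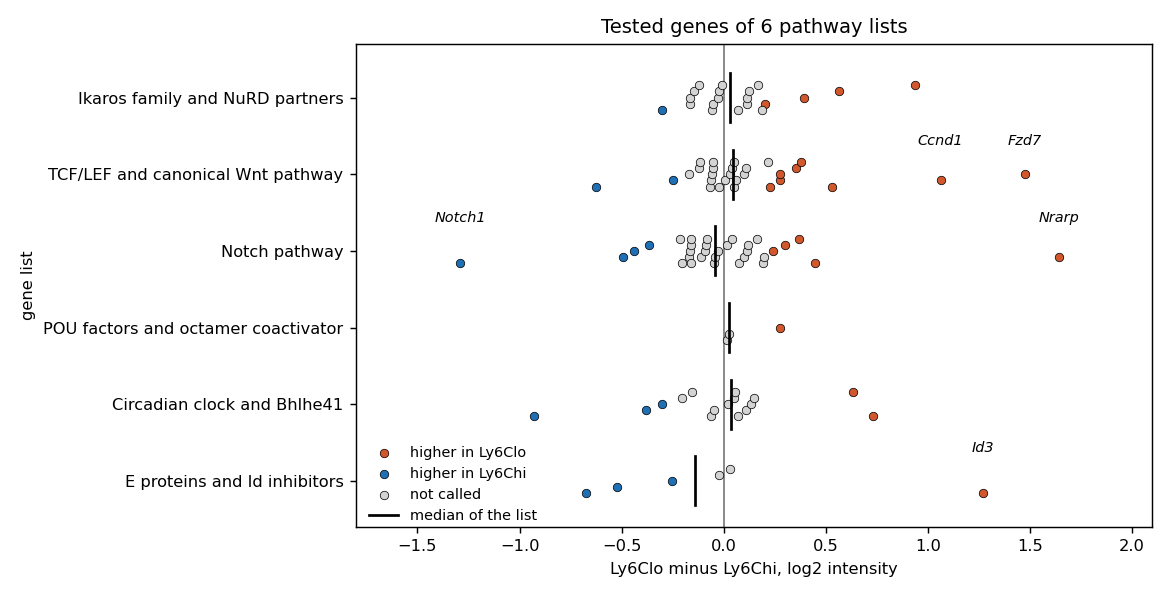
Difference between the subsets (Ly6Clo minus Ly6Chi, log2 intensity) of every tested gene in 6 pathway lists; orange points were called higher in Ly6Clo, blue points higher in Ly6Chi, grey points not called, and black bars are list medians. Most genes lie near 0, while Nrarp at 1.64, Fzd7 at 1.47, Id3 at 1.27, Ccnd1 at 1.06 and Notch1 at -1.29 stand far from it.

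Clock genes, the pathway on which Bhlhe40 acts, had 2 of 16 tested members called toward Ly6Clo and 3 toward Ly6Chi (31.2%, median difference 0.03). The nuclear receptor Nr1d2 was 1.55-fold (limma adjusted p = 0.000239) and the PAR-bZIP factor Tef 1.66-fold (limma adjusted p = 0.000129) higher in Ly6Clo. Nfil3, a bZIP factor that competes with PAR-bZIP factors for their sites, was 1.90-fold higher in Ly6Chi (limma adjusted p = 0.000469). Dbp and Rora were also called higher in Ly6Chi (limma adjusted p = 0.0471 and 0.0173), but without Ly6Clo replicate 1 neither was, which left 1 gene on that side. The other tested probe sets were not called, at -0.11 for Dbp (limma adjusted p = 0.291) and -0.02 and -0.08 for Rora (limma adjusted p = 0.897 and 0.558). Dbp also lost its call without any 1 of Ly6Chi replicates 1 and 4 and Ly6Clo replicates 2 and 4, and Rora without Ly6Chi replicate 2. Bhlhe41, the closest relative of Bhlhe40, lay below the table median in all 8 arrays. Chosen after their values were seen, the core clock genes Arntl, Clock and Per2 differed by 0.11, -0.06 and 0.02 and were not called. The hour at which cells were collected is not named in the sources used here.

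E proteins and Id inhibitors, which pair with one another and with other helix-loop-helix factors, had 1 of 6 tested genes called toward Ly6Clo and 3 toward Ly6Chi (66.7%, median difference -0.14). Id3 was 2.41-fold higher in Ly6Clo (limma adjusted p = 0.000353), whereas Id2 was 1.44-fold higher in Ly6Chi (limma adjusted p = 0.000643). The E protein Tcf4 was 1.60-fold (limma adjusted p = 0.000783) and Tcf12 1.19-fold (limma adjusted p = 0.0201) higher in Ly6Chi. With probe sets averaged by gene, 1 gene in place of 3 was higher in Ly6Chi, since Id2 (limma adjusted p = 0.0826) and Tcf12 (limma adjusted p = 0.515) lost their calls. The other 3 tested Tcf12 probe sets differed by -0.12, 0.09 and 0.02 and were not called, and the other 2 of Id2 differed by -0.40 (called) and 0.28 (not called). Tcf12 was also lost without Ly6Chi replicate 4, Ly6Clo replicate 1 or Ly6Clo replicate 4.

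Of 12 listed POU and octamer coactivator genes, 3 were tested, and Pou6f1 was called, 1.21-fold higher in Ly6Clo (limma adjusted p = 0.00688). Pou2af1, the B cell coactivator of Oct-2, did not pass the filter. It averaged 6.27 in Ly6Chi and 5.07 in Ly6Clo, and 1 of 8 arrays lay over the table median.

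Several members are known from lymphocytes, so marker levels of other blood cells are set beside them. Of 7 tested B cell markers, 3 were called higher in Ly6Chi and 1 higher in Ly6Clo. Ms4a1 (CD20) was at least 1.85-fold (limma adjusted p = 0.00498) and Cd79a at least 1.47-fold (limma adjusted p = 0.0345) higher in Ly6Chi. For both markers the arrays of the subsets overlapped. The Cd79a call was lost without any 1 of Ly6Chi replicates 1 and 3 and Ly6Clo replicates 2, 3 and 4. The inhibitory receptor Cd22 was 2.42-fold higher in Ly6Clo (limma adjusted p = 2.54e-05). The list mean ran from 7.15 to 7.62 in Ly6Chi and from 6.89 to 7.42 in Ly6Clo, and Ebf1, Fcer2a and Cr2 lay below the table median in all 8 arrays. The part of B cells in the Ikzf3 and Pou2f2 differences was not tested.

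Of 6 tested NK cell markers, 2 were called higher in Ly6Clo and 4 were not called. The mean of the 6 ran from 6.84 to 7.23 in Ly6Chi and from 7.38 to 7.70 in Ly6Clo, without overlap. Klrd1 was 3.19-fold (limma adjusted p = 9.02e-06) and Gzma 1.64-fold (limma adjusted p = 0.00186) higher there. In Ly6Chi only replicate 1 passed the table median for Klrd1, so the size of its fold is not exact. Nkg7, Gzmb, Klrk1 and Il2rb differed by 0.29, 0.28, 0.07 and -0.05 and were not called. Ncr1, Prf1, Eomes, Tbx21 and Klre1 did not pass the filter, the last 3 with no array over the table median. The part of NK cells in the Ikzf3 difference was not tested. Of 7 tested T cell markers limma called none, with 1 at an unadjusted p under 0.05. Their list mean ran from 6.85 to 7.04 in Ly6Chi and from 6.91 to 7.16 in Ly6Clo, with Cd3d and Cd3e at differences of 0.15 and 0.01.

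The other blood cell lists overlapped between the subsets or leaned toward Ly6Chi. Neutrophil markers had 2 of 7 genes higher in Ly6Chi, Csf3r at 1.48-fold (limma adjusted p = 0.000135) and Mpo at 1.18-fold (limma adjusted p = 0.0331), and the Mpo call was lost without any 1 of Ly6Chi replicates 2, 3 and 4 and Ly6Clo replicates 1 and 2. Plasmacytoid dendritic cell markers had 3 of 7 higher in Ly6Chi, led by Tcf4 and Ly6d (1.51-fold, limma adjusted p = 0.0212). The Ly6d call was lost without Ly6Clo replicate 2, 3 or 4. The plasmacytoid list mean ran from 7.89 to 8.15 in Ly6Chi and from 7.64 to 7.85 in Ly6Clo, without overlap. Conventional dendritic cell markers had 2 of 7 higher in Ly6Chi, Batf3 and Flt3, and 1 higher in Ly6Clo, Cd209a (1.87-fold, limma adjusted p = 0.000204). Platelet and red cell list means spread widely within each subset, from 7.99 to 9.05 and 7.61 to 8.89 in Ly6Chi and from 8.15 to 9.34 and 7.74 to 9.23 in Ly6Clo. Of 10 tested genes in these 2 lists limma called none, with 1 platelet gene at an unadjusted p under 0.05.

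Bhlhe40 and Hes1 are also known to respond quickly to stimulation, and genes induced by handling cells moved in both directions. Of 17 tested, 7 were called toward Ly6Clo and 2 toward Ly6Chi (52.9%, beside 32.5% over all tested genes). Nr4a1, called toward Ly6Clo, stands in this list and also among the nonclassical markers. Jun was 3.03-fold higher (limma adjusted p = 8.82e-05) and the heat shock gene Hspa1b 2.78-fold higher (limma adjusted p = 0.0245) in Ly6Clo. The Hspa1b call was lost without any 1 of Ly6Chi replicates 1 and 4 and Ly6Clo replicates 2 and 4. Fos was 4.75-fold (limma adjusted p = 9.82e-05) and Atf3 1.77-fold (limma adjusted p = 7.92e-06) higher in Ly6Chi. The list mean ran from 8.91 to 9.19 in Ly6Chi and from 9.09 to 9.39 in Ly6Clo. Within Ly6Clo the list mean was highest in replicate 2, which was also the highest for Hes1, Pou2f2 and Ikzf1 and the second lowest for Bhlhe40. Within Ly6Chi it was highest in replicate 2 as well. There Hes1 read 8.19, below replicates 1 and 4, and Bhlhe40 read 8.05, its lowest value. The part of handling in the Bhlhe40 and Hes1 differences was not tested.

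**Figure D4:**
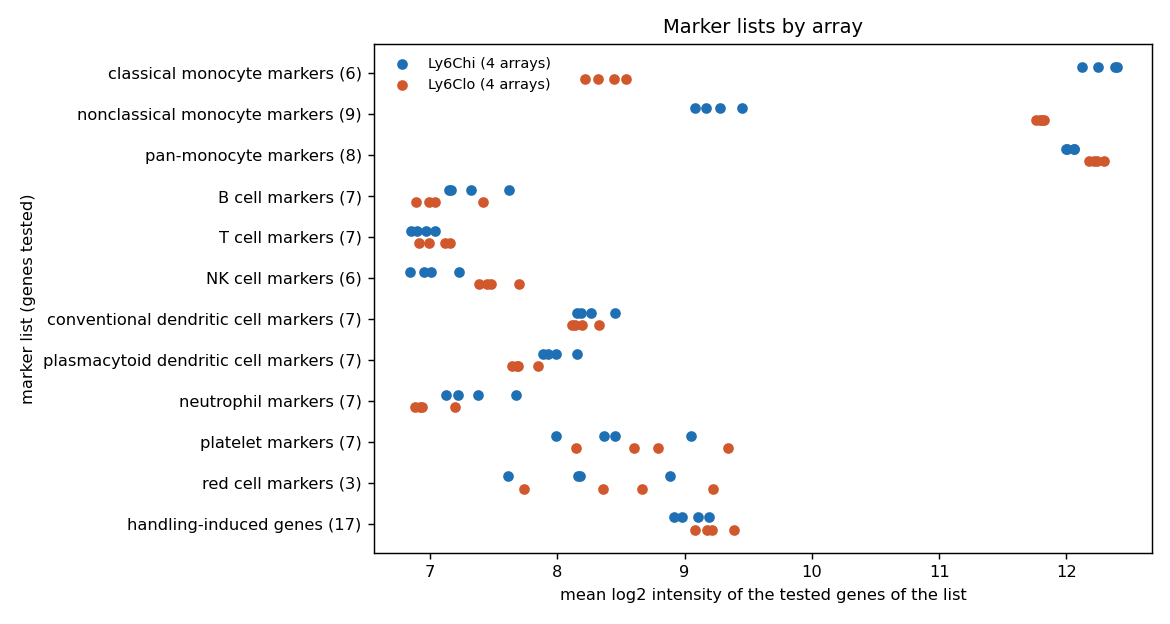
Mean log2 intensity of the tested genes of 12 marker lists in each array (blue Ly6Chi, orange Ly6Clo, 4 arrays each; the number of tested genes is in brackets). Classical and nonclassical lists separate the subsets widely. The NK, pan-monocyte and plasmacytoid dendritic cell lists separate them by small gaps, the last with Ly6Chi higher, and the other lists overlap. Heights of different lists are not comparable.

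For 6 members the 2 genes whose profile over the 8 arrays lay nearest were found by the root mean square distance between log2 values centred per gene. This measure follows mostly the difference between the subsets, so it is a description of alike size. Tcf7l2 lay nearest to Serpinb6a (distance 0.16) and Cd274 (0.18). Bhlhe40 lay nearest to L1cam (0.13) and Cd300ld (0.17). For Ikzf3 the nearest were Cd83 (0.19) and Eno3 (0.20). Hes1 lay nearest to Agpat4 (0.08) and Dgkh (0.09). Pou2f2 had Atad2 (0.05) and Snrnp48 (0.06) as its nearest genes, and Ikzf1 had Smarca5 (0.02) and Lcp2 (0.04).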

How the data were processed

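Per the labels' protocols, RNA was amplified by in vitro transcription lengthened from 4 h to 64 h, which can change 3' to 5' balance and measured ratios. The deposited values are linear probe set intensity, with no further normalization here. GCRMA and MAS5 appear in the submitters' processing notes without role or version, so which made the values is not given in the sources used here. Per the labels, the replicates are separate sorts.

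Log2 intensities without a pseudocount were tested by limma (version 3.58.1, under R 4.3.3; lmFit, eBayes, two-sided, no block), with a threshold of 0.05 on the Benjamini-Hochberg adjusted p over 22831 probe sets. A gene was represented by its tested probe set with the highest mean. Of 45101 probe sets 64 controls were left out; 34945 had 1 symbol in the platform annotation, 932 several and 9160 none. A subset mean below the table median was set to that median for folds, given as "at least". Intervals are at 95%, unadjusted, and are no test for the picked genes. Arrays give no depth, so their number limits precision. The naming rule took all members and, in each pathway list, the 3 called genes with the largest difference in each direction. In marker lists it took 2, and the 2 brightest genes where none was called. Other genes named in the text fall outside this rule, and only some are marked as chosen after their values were seen. The unmarked ones should be read in the same way. The members and lists were chosen with earlier results of these data known. Same-numbered samples were checked for pairing: their deviations correlated from -0.10 to 0.34, over 0.1 in 2 of 4 pairs, so they were not treated as paired. Samples of different number ran from -0.41 to 0.55. Ly6Chi replicate 4 with Ly6Clo replicate 3 was the highest, and Ly6Chi replicate 3 with Ly6Clo replicate 4 gave 0.30. Each Ly6Clo sample had its highest correlation with a different Ly6Chi sample. Ly6Clo replicates 1 and 2 had it with the same number (0.27 and 0.34), 3 with Ly6Chi 4 and 4 with Ly6Chi 3. Whether samples of different number shared a sort was not tested, and the replicate block used below follows the numbers only. A block by the highest correlations was not run, so neither fit accounts for a pairing of that kind. Simulated data with 22831 probe sets gave recovery of 8%, 68%, 98% and 100% for differences of 0.25, 0.5, 1 and 2, with 11 false calls among 148. The fit of the real arrays called 7108 probe sets. Its Benjamini-Hochberg cutoff therefore differs, and the recoveries do not carry over to it.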

Additional observations from a re-analysis of the deposited data

Results flagged for a closer look

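In 7 of the 140 groups of 4 arrays checked for the named probe sets, 1 array stood apart from the other 3 by Dixon's criterion at its 95% level (the gap to the nearest array over the range), where chance gives about 1 in 20. Ly6Clo replicate 3 was high for Tcf7l2 in 1425229_a_at (6.80, others from 6.43 to 6.49) and in 1429427_s_at (7.73, others from 7.26 to 7.32). It was also high for Pofut1 (8.52, others from 8.37 to 8.38). Ly6Chi replicate 3 was low for Tle1 (7.98, others from 8.38 to 8.45), and Ly6Chi replicate 4 was low for Gzma (7.13, others from 7.61 to 7.67). Ly6Clo replicate 1 was low for Cd177 (6.49, others from 6.58 to 6.59) and for Fcgr3 (11.12, others from 11.38 to 11.42).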

How the results depend on the processing

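Besides the fit reported, 18 other settings were run, and leaving out the 2 samples numbered 1 was added after seeing the data. With a replicate block, 3547 probe sets were called toward Ly6Clo and 3617 toward Ly6Chi, against 3472 and 3636 without it, and no list count moved by more than 1.5 times; the Mpo call was lost (adjusted p = 0.0534). At an adjusted p under 0.01, 2290 probe sets were higher in Ly6Clo, with 1 gene of the Wnt list and 1 of the clock list higher in Ly6Chi. With a pseudocount of 32 the differences were 2.04 for Tcf7l2, 1.49 for Hes1 and 2.80 for Ikzf3. With the average of probe sets they were 1.67 for Tcf7l2, 0.95 for Pou2f2 and 2.18 for Ikzf3, and 1 clock gene and 1 E protein gene were higher in Ly6Chi. Without a filter 1 POU gene was higher in Ly6Chi and the NK list differed by 0.34. Without the 2 samples numbered 1, 0 genes of the Ikaros list, 1 of the Wnt list and 1 of the clock list were higher in Ly6Chi. Leaving out each array gave from 4 to 7 Notch genes and from 1 to 3 clock genes higher in Ly6Chi. Cd3e, not called, turned sign without Ly6Chi replicate 2 or 3 (-0.01 each) or Ly6Clo replicate 4 (-0.024), with a range from -0.024 to 0.037 over the fits that left out 1 array. No representative difference of the 7 members turned sign, and the adjusted p of Ikzf1 stayed at or below 0.00544. Signal near background limits Tcf7l2, Ikzf2 and Ikzf3. The cause was not tested.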
